A study of Mus musculus with 18 samples.

Results

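The genes described here encode the proteins of the small subunit of the cytosolic ribosome. They were chosen by symbol, as protein-coding genes named Rps with a number, or Rpsa, together with Rps3a1, and pseudogenes were left out. That gave 32 genes of the 47729 in the count files, and the related Rps4l was left out because it is annotated as a transcribed pseudogene. All samples were whole cortex of mouse embryos at embryonic day E15.5 with a conditional knockout (cKO) of BAF155, which is part of the SWI/SNF remodelling complex that moves nucleosomes. Mice of the TSA group were treated with TSA (trichostatin A), which blocks histone deacetylases, and those of the Vehicle group with vehicle. RNA was counted in 4 TSA and 4 Vehicle libraries, and histone H3 acetylated at lysine 9 (H3K9ac), a mark of active promoters, was mapped in 4 TSA and 4 Vehicle libraries. Both groups carried the knockout, so TSA is compared with Vehicle inside it, and the Cre line behind the knockout is not given in the sources used here. The labels do not say whether replicates were separate embryos, so a p-value here measures the spread of these samples, which may be technical.

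The small subunit binds the messenger RNA and the initiator tRNA and reads the codons, while the large subunit joins the amino acids. Its proteins wrap a single ribosomal RNA that folds into a head and a body, and nearly every one of them is needed in equal number for a complete subunit. In mammals their mRNAs, and those of many translation factors, begin with a C followed by a run of pyrimidines, the terminal oligopyrimidine (TOP) motif, through which mTOR signalling and the protein LARP1 govern their translation.

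Start-site windows are shown because the genes with a known start all carried H3K9ac there and 20 of the 32 fell. RefSeq promoters (GRCm38.p6, which is mm10) were found for 24 of the 32 genes, from 250 bases before the annotated start to 50 after it. Each line below runs 5′ to 3′ from 50 bases before the start to the first 20 transcribed bases, from the first listed start where there are several, and capitals mark runs of 8 or more C or T that lie within 20 bases of the start. In the first set the annotated start is a C and the next 4 bases are C or T, as in a TOP mRNA.
Rps10 (chr17:27635225-27635294, minus strand): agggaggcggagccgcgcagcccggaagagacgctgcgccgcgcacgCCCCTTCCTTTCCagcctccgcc
Rps15a (chr7:118116128-118116197, minus strand): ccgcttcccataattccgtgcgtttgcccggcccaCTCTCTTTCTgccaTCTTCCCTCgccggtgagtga
Rps18 (chr17:33955646-33955715, minus strand): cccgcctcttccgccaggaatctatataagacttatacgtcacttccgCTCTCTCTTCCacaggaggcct
Rps6 (chr4:86857348-86857417, minus strand): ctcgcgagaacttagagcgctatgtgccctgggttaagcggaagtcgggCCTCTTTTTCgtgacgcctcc
Rps27 (chr3:90213629-90213698, minus strand): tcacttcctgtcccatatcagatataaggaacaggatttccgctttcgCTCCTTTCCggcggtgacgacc
The same start letters were present in Rps21, so 6 of 24 genes, 25.0%, had them. Of all 27025 genes with a RefSeq promoter, expressed or not, 3.01% had them. Here and below a gene was counted if any of its promoters matched. In a second set the start as annotated does not have these letters.
Rps25 (chr9:44407664-44407733, plus strand): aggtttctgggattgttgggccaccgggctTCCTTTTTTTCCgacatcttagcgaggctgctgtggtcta
Rps24 (chr14:24490628-24490697, plus strand): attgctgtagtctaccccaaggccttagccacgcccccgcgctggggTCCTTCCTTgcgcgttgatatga
Rps3 (chr7:99483690-99483759, minus strand): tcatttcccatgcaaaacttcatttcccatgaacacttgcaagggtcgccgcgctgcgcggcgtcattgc
A pyrimidine run of 8 or more lay within 20 bases of the start in 11 of 24 genes (45.8%), against 18.4% of all genes with a promoter. In Rps25 the run lies upstream of the annotated start, in Rps24 the annotated start is a T inside the run, and Rps3 has none.

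The ETS-type letters ACTTCCG, bound by factors such as GABPA, were sought over the whole 300-base window, on either strand. They occurred in 10 of 24 genes (41.7%), against 7.20% of all genes with a promoter. The YY1-type letters AAGATGG occurred in 5 genes (20.8%), against 7.28%. The SP1-type letters GGGGCGGGG (2 genes, 8.33% against 12.9%), the TATA box TATAAA (2 genes, 8.33% against 15.7%) and the cyclic AMP element TGACGTCA (1 gene, 4.17% against 2.03%) were rare. These matches are descriptions of letters, not of binding.

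The summed share of the transcriptome held by these genes was lower with TSA. It was 0.304, 0.284, 0.281 and 0.284% of all counts in TSA 1 to 4, against 0.546, 0.403, 0.478 and 0.632% in Vehicle 1 to 4. The groups did not overlap, the TSA libraries lay close together, and the Vehicle libraries spread widely, with Vehicle 4 highest and Vehicle 2 lowest. The means were 0.288 ± 0.011% in TSA and 0.515 ± 0.097% in Vehicle (SD, n = 4 each), a ratio of 0.560. In whole tissue, fewer cells rich in these mRNAs and less of the mRNA per cell cannot be told apart.

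**Figure D1:**
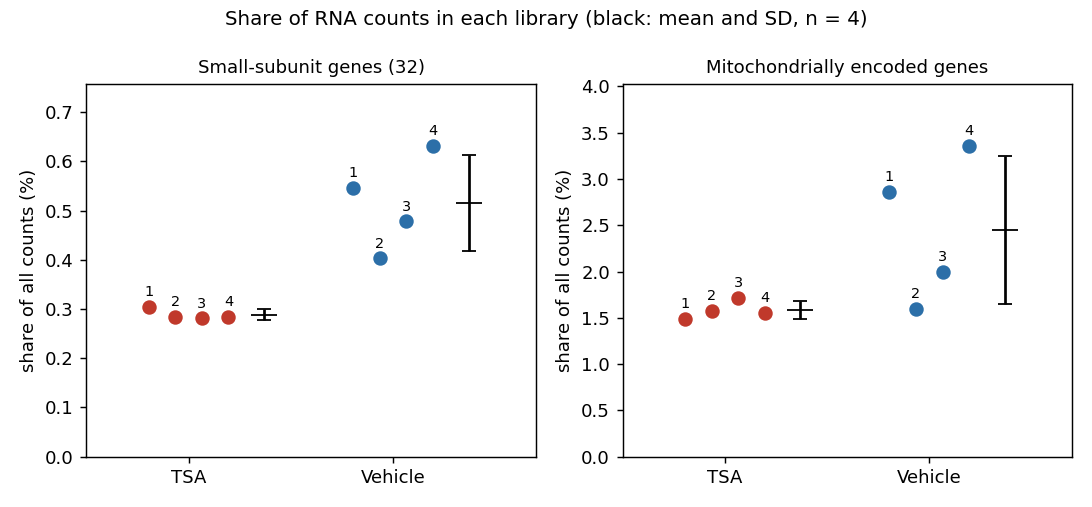
Percent of all RNA counts held by the 32 small-subunit genes (left) and by mitochondrially encoded genes (right) in each library, with TSA at the left of each panel; points carry the replicate number and black bars are the mean and SD of 4 libraries. Small-subunit shares sit between 0.281 and 0.304% in TSA, all below the Vehicle shares of 0.403 to 0.632%, while the mitochondrial shares overlap.

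Totals were 6733415, 18080205, 20400727 and 16347934 counts in TSA 1 to 4, and 14216775, 15600340, 14357279 and 12200426 in Vehicle 1 to 4. Several other measures moved with the small-subunit share. Mitochondrially encoded genes held 1.48 to 1.71% of counts in TSA and 1.60 to 3.36% in Vehicle, where Vehicle 4 and Vehicle 1 were highest in both shares. The slope of a library's log2 expression deviation over the log10 of genomic span was 0.081, 0.115, 0.154 and 0.026 in TSA 1 to 4, and −0.156, 0.047, −0.070 and −0.197 in Vehicle 1 to 4, so Vehicle 1 and Vehicle 4 were tilted most towards short genes. Spans of the small-subunit genes run from 982 to 11774 bp, with a median of 3106.5 bp. Among all tested genes with spans of 2 to 5 kb the median log2 fold change was −0.18, and for spans over 100 kb it was 0.17. The part of span, or of what underlies it, in the change of these genes was not tested beyond the settings given below. Within each sequencing lane, which the file names give, the TSA share was also lower, at 0.294% (mean of TSA 1 and TSA 2) against 0.546% (Vehicle 1) in lane 1, 0.281% (TSA 3) against 0.403% (Vehicle 2) in lane 2, and 0.284% (TSA 4) against 0.555% (mean of Vehicle 3 and Vehicle 4) in lane 3. Xist, the RNA that coats an inactive X chromosome, was at 0.297, 1.44, 0.490 and 2277 CPM (counts scaled to a common total) in TSA 1 to 4, against 1788 to 3228 CPM in Vehicle, so TSA 1, TSA 2 and TSA 3 stood apart from the other libraries. Group and Xist status thus nearly coincided, so a possible difference in embryo sex cannot be fully told apart from TSA for any gene.

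All 32 genes passed the filter on low counts and were tested. Of these, 20 fell with TSA, 0 rose and 12 were not called, at a Benjamini-Hochberg adjusted p under 0.05 in edgeR's quasi-likelihood test over 15000 genes. Among all tested genes 17.6% fell and 15.4% rose. The median log2 fold change (TSA over Vehicle) of the 32 genes was −0.63, beside −0.01 for all tested genes. In 15 of the 32 every TSA library lay below every Vehicle library, which held for 17.4% of tested genes, and in 0 did every TSA library lie above (14.9% of tested genes). Of 22 genes with a mean of at least 10 CPM (on TMM-scaled totals) 19 fell, and of 10 genes below that 1 fell, while over all tested genes 21.6% and 9.06% fell at these levels. By the part of the subunit that their proteins sit in, 10 of 14 head genes fell (median log2 fold change −0.61) and 10 of 18 body genes fell (−0.67), a difference that was not tested.

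**Figure D2:**
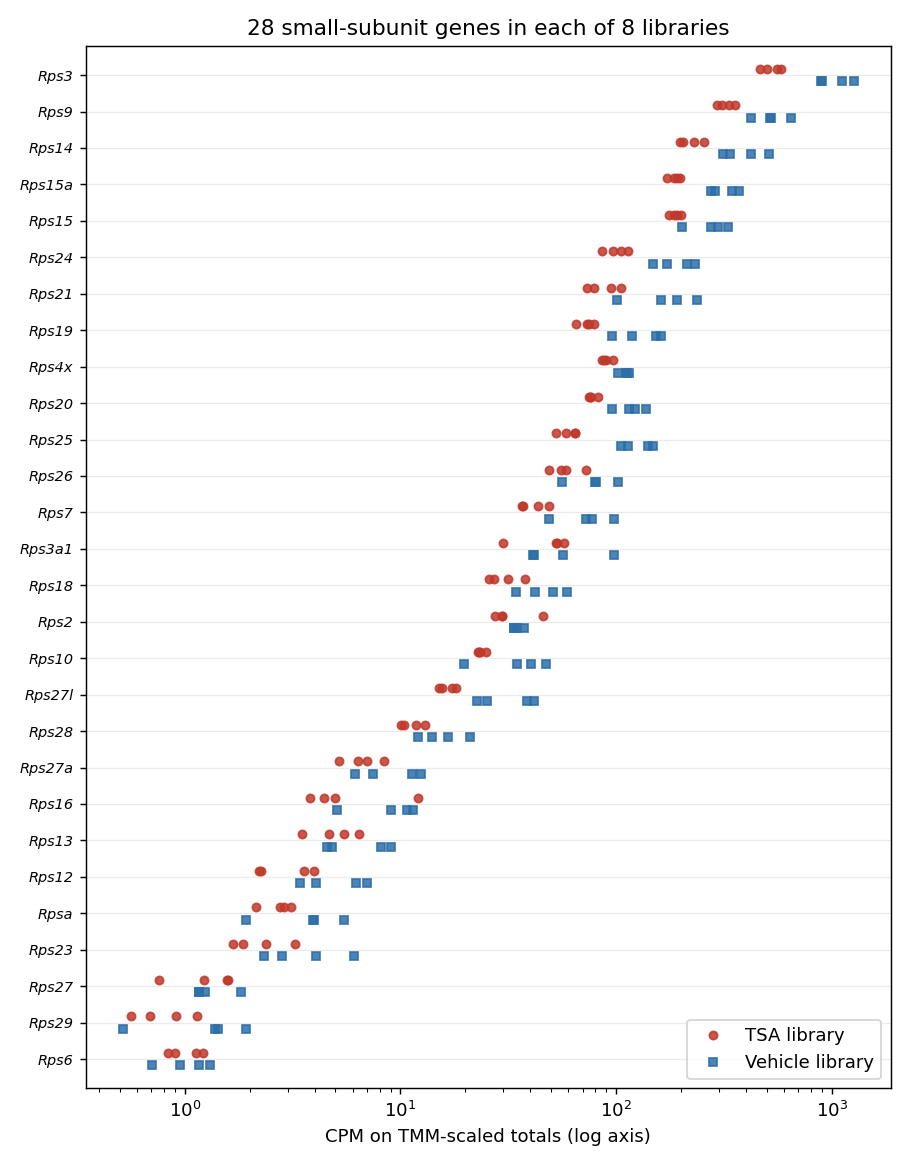
CPM of 28 of the small-subunit genes in every library on a log axis, TSA circles above Vehicle squares in each row, with genes ordered by mean CPM. TSA libraries lie left of all Vehicle libraries in 12 of these genes, among them Rps3 and Rps25, and the genes at about 1 CPM, Rps27, Rps29 and Rps6, overlap.

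The count of 20 rested in part on how the libraries were grouped. With Xist status as a covariate 9 genes remained called, a fit in which TSA 4 is the only TSA library on the Vehicle side of that split; the median log2 fold change was then −0.58. Without Vehicle 1 and Vehicle 4, the libraries richest in mitochondrial counts, 15 fell and the median was −0.42, and with each library's trend over span removed 16 fell (limma) and the median was −0.41. In all 21 other settings 9 genes were called, among them Rps3, Rps14, Rps15a, Rps19, Rps24, Rps25 and Rps27l.

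**Figure D3:**
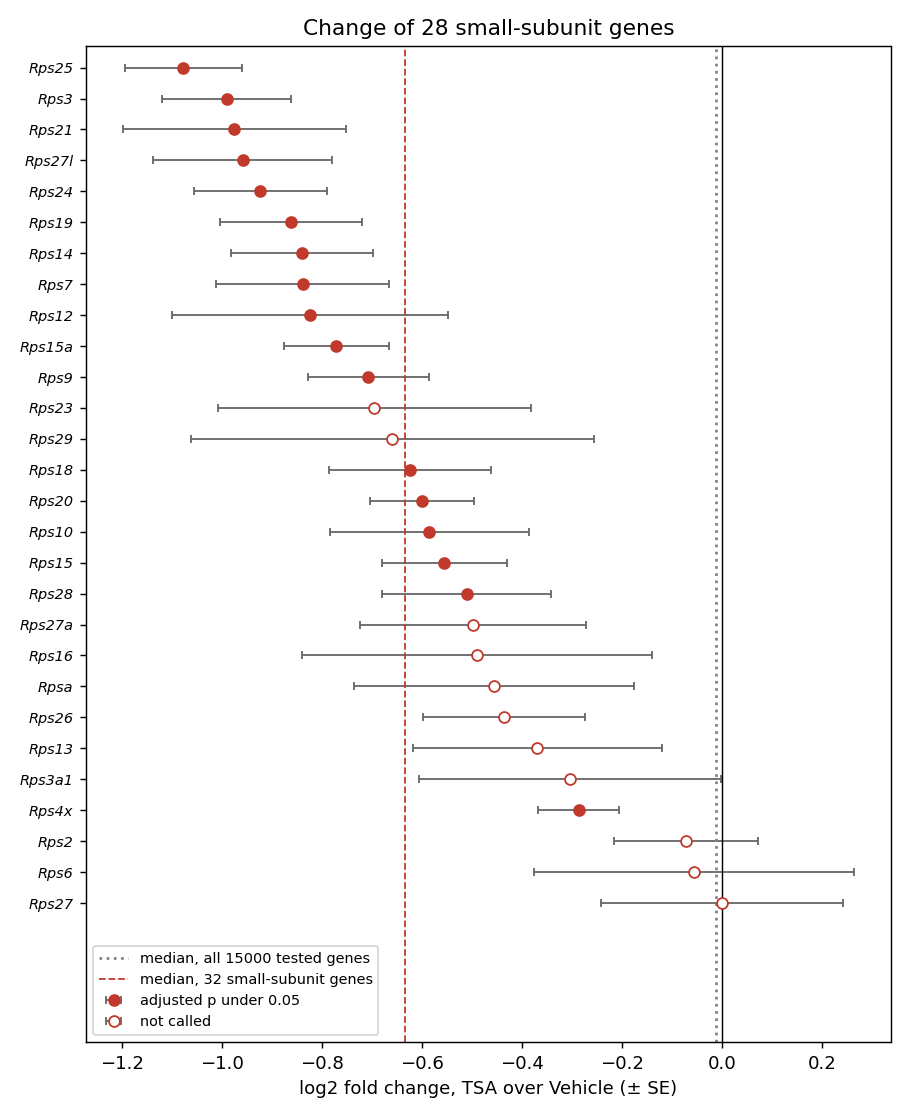
Log2 fold change of 28 of the small-subunit genes, TSA over Vehicle, with its standard error; filled points passed an adjusted p under 0.05 and open points did not. The red dashed line is the median of the 32 genes, −0.63, and the grey dotted line is the median of all 15000 tested genes, −0.01; of the genes drawn, Rps25 lies farthest from 0 and Rps27 at 0.

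Among head proteins, Rps3, which lines the channel through which mRNA enters and also acts in DNA repair (chromosome 7, 99477896 to 99483709), was the most highly counted of the 32. It had 581, 558, 499 and 465 CPM in TSA 1 to 4, against 1120, 891, 903 and 1266 CPM in Vehicle 1 to 4. No TSA library came near the Vehicle ones. The log2 fold change of Rps3 was −0.99 ± 0.13 (edgeR adjusted p = 9.85e-05; SE here and below, from 4 libraries in each group). Rps25, which some viral RNAs need for internal initiation of translation (chromosome 9, 44407714 to 44410406), had 58.8, 64.3, 64.1 and 52.4 CPM in TSA 1 to 4, against 141, 105, 113 and 148 CPM in Vehicle 1 to 4. The groups were again apart, and the log2 fold change of Rps25 was −1.08 ± 0.12 (edgeR adjusted p = 4.05e-05).

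Other head genes that fell without overlap included Rps19 (log2 fold change −0.86 ± 0.14), Rps20 (−0.60 ± 0.10) and Rps15 (−0.56 ± 0.12). Mutations of RPS19 are the most frequent cause of Diamond-Blackfan anaemia in humans. Rps18 (−0.62 ± 0.16), Rps10 (−0.59 ± 0.20), Rps12 (−0.82 ± 0.28) and Rps28 (−0.51 ± 0.17) also fell, although their groups overlapped. Calls of the last 3 rested on single libraries. That of Rps10 ended when any library but Vehicle 2 was left out, that of Rps12 without TSA 3, TSA 4, Vehicle 1 or Vehicle 4, and that of Rps28 without TSA 2, TSA 3, TSA 4, Vehicle 1 or Vehicle 4 (edgeR adjusted p from 0.0593 to 0.138). Without Vehicle 1 and Vehicle 4 together, the log2 fold changes of Rps10, Rps12, Rps18 and Rps28 were −0.20, −0.36, −0.34 and −0.22, and no call was left among them. The 4 head genes that were not called had few counts, among them Rps27a, made as a fusion with ubiquitin (−0.50 ± 0.23), Rps16 (−0.49 ± 0.35) and Rps29 (−0.66 ± 0.40).

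Among body proteins, Rps15a (chromosome 7, 118104374 to 118116147), whose start has the TOP letters shown above, had 186, 192, 197 and 172 CPM in TSA 1 to 4, against 343, 287, 275 and 371 CPM in Vehicle 1 to 4. Its groups did not overlap, and its log2 fold change was −0.77 ± 0.10 (edgeR adjusted p = 0.000136).

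Rps24, another gene mutated in Diamond-Blackfan anaemia in humans (chromosome 14, 24490678 to 24496960), had 86.4, 105, 113 and 97.2 CPM in TSA 1 to 4, against 212, 148, 172 and 233 CPM in Vehicle 1 to 4. Its groups were apart, with a log2 fold change of −0.92 ± 0.13 (edgeR adjusted p = 0.000208).

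Rps9 (−0.71 ± 0.12), Rps14 (−0.84 ± 0.14), Rps7 (−0.84 ± 0.17) and Rps27l (−0.96 ± 0.18) fell without overlap, and Rps21 fell with overlap (−0.98 ± 0.22). Loss of a copy of RPS14 underlies the anaemia of the human 5q− syndrome. Without Vehicle 1 and Vehicle 4 the log2 fold change of Rps14 was −0.56, that of Rps19 −0.57 and that of Rps27l −0.55, all still called, and that of Rps21 was −0.58 and not called (edgeR adjusted p = 0.0701). Rps4x, the X-linked member (chromosome X, 102184941 to 102189391), moved least among the called genes. It had 85.8, 89.9, 96.9 and 87.8 CPM in TSA 1 to 4, against 111, 115, 112 and 102 CPM in Vehicle 1 to 4. The gap between the groups was narrow but held for every library, with a log2 fold change of −0.29 ± 0.08 (edgeR adjusted p = 0.0141). Its call ended without TSA 1 or TSA 2 (adjusted p = 0.0616 and 0.0554), and with the span trend removed its change was −0.12. With Xist status as a covariate the change of Rps4x was −0.33. In that fit TSA 4 is the only TSA library on the Vehicle side of the Xist split. Every other TSA library had almost no Xist, so for this X-linked gene the group contrast nearly matches the Xist contrast. The part of Xist status in its change was not tested beyond that fit.

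The body genes that were not called ranged from −0.70 to 0.00. Rps26, which contacts mRNA at the exit of its channel, came closest at −0.44 ± 0.16 (edgeR adjusted p = 0.0539), with 58.7, 48.8, 55.4 and 72.8 CPM in TSA 1 to 4, against 80.8, 56.0, 102 and 79.6 CPM in Vehicle 1 to 4. Rps23 (−0.70 ± 0.31), Rpsa, also known as the laminin receptor precursor (−0.46 ± 0.28), and Rps13 (−0.37 ± 0.25) had under 10 CPM in every library. Leaving out Vehicle 2 gave calls to Rps26, Rps23, Rpsa and Rps27a, and Rps26 also passed in DESeq2 (adjusted p = 0.0374). Rps26 was called too without a filter on low counts, with a replicate block, with lane as a covariate and without TSA 4. It was not called in the remaining settings, among them Xist status as a covariate. Rps27a was also called without a filter, and Rps23 with a replicate block.

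The 3 genes with a change closest to 0 were Rps27, Rps6 and Rps2. Rps27, a zinc finger protein of the body, had 5, 28, 25 and 25 counts in TSA 1 to 4, against 17, 18, 18 and 23 in Vehicle 1 to 4, and a log2 fold change of 0.00 ± 0.24 (edgeR adjusted p = 0.999). Rps6, the protein that S6 kinases phosphorylate downstream of mTOR, had 8, 16, 17 and 18 counts in TSA 1 to 4, against 17, 11, 19 and 12 in Vehicle 1 to 4, and a log2 fold change of −0.06 ± 0.32 (adjusted p = 0.915). The groups overlapped in both genes. Rps2, which lines the mRNA entry channel (chromosome 17, 24718121 to 24721927), was better counted. It had 29.6, 29.7, 27.4 and 46.0 CPM in TSA 1 to 4, against 33.6, 34.7, 33.8 and 37.6 CPM in Vehicle 1 to 4. TSA 4 stood above all Vehicle libraries and the other TSA libraries below them, and the log2 fold change was −0.07 ± 0.14 (adjusted p = 0.749).

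Low counts of genes such as Rps6 and Rps29 do not measure the level of their mRNA, because reads shared with copies elsewhere in the genome may have been dropped or split by a counting program that is not given in the sources used here. The files list 104 genes named as Rps pseudogenes. Their summed counts were 0.361, 0.379, 0.410 and 0.735% of the small-subunit counts in TSA 1 to 4, against 0.347, 0.296, 0.727 and 0.715% in Vehicle 1 to 4. The values above 0.7% belong to the 3 libraries of lane 3. An order of these genes by counts is therefore an order of counted reads, not of mRNA levels.

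Counts of Rps3a1 (chromosome 3, 86137940 to 86142668) moved against those of a copy. This body protein near the mRNA exit had 57.6, 30.05, 52.5 and 53.3 CPM in TSA 1 to 4, against 97.8, 41.0, 41.5 and 56.9 CPM in Vehicle 1 to 4. It was not called (log2 fold change −0.30 ± 0.30, edgeR adjusted p = 0.497). Its copy Rps3a3 had 1, 487, 4 and 5 counts in TSA 1 to 4, against 5, 593, 629 and 784 counts in Vehicle 1 to 4. The libraries with high Rps3a3 counts, TSA 2 and Vehicle 2, 3 and 4, were those whose Rps3a1 was low for their group. With the counts of Rps3a1 and its named copies added up, a setting chosen after seeing the data, the values were 57.8, 57.6, 52.7 and 53.8 CPM in TSA 1 to 4, against 98.3, 79.2, 85.1 and 120 CPM in Vehicle 1 to 4. The summed groups did not overlap, and the log2 fold change was −0.79 ± 0.12 (edgeR adjusted p = 0.000239), which brought the number of genes that fell to 21.

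**Figure D4:**
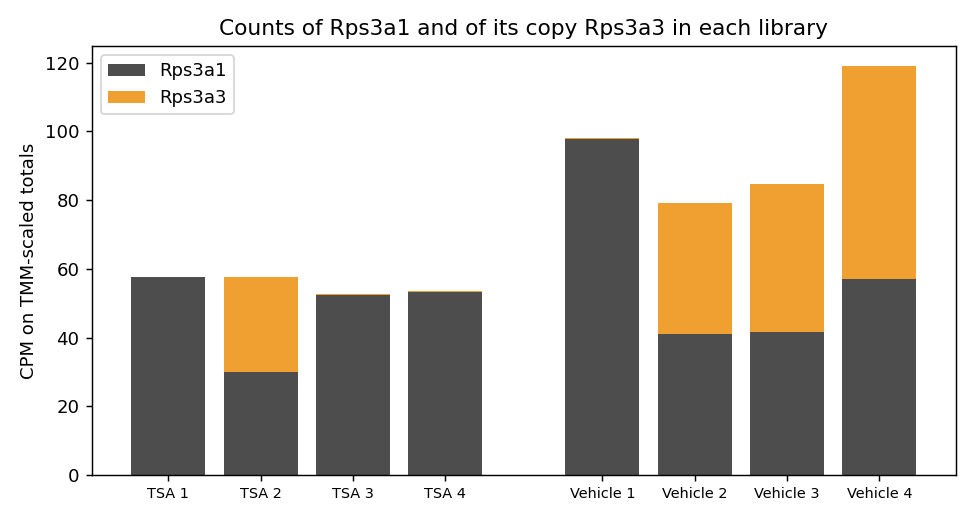
Stacked CPM of Rps3a1 (grey) and of its copy Rps3a3 (orange) in each library, TSA left of Vehicle. Rps3a3 holds a large share of the stack in TSA 2 and in Vehicle 2, 3 and 4, and the full stacks are 52.7 to 57.8 CPM in TSA and 79.2 to 120 CPM in Vehicle once the small counts of Rps3a2 are included.

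Adding named copies changed no other call. Copies held 52.5% of the summed counts of Rpsa and 27.4% of those of Rps13, and their log2 fold changes with copies were −0.68 ± 0.28 (edgeR adjusted p = 0.0725) and −0.62 ± 0.24 (0.0630). For Rps25 and Rps3 copies held 0.07 and 0%.

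Within the small-subunit counts, few genes departed from the common shift. Set against the summed counts of the 32 genes in each library, 4 genes were higher and 0 lower (edgeR, adjusted over all tested genes). Against that same sum 73.9% of all tested genes were higher and 0.56% lower, so the 4 genes moved in the direction that most of the transcriptome shares; none of the 32 was lower at an unadjusted p under 0.05 either. Rps2 held 9.47, 10.2, 9.67 and 15.8‰ of the small-subunit counts in TSA 1 to 4, against 6.30, 8.56, 7.14 and 6.16‰ in Vehicle 1 to 4. Every TSA share of Rps2 was above every Vehicle share, with a log2 difference of 0.69 ± 0.18 (edgeR adjusted p = 0.00199). Rps4x (0.46 ± 0.18, adjusted p = 0.0240) and Rps27 (0.78 ± 0.31, 0.0294) were called too, both with overlap; the call of Rps4x was lost without TSA 2, TSA 3 or Vehicle 1 (adjusted p from 0.0560 to 0.0814) and that of Rps27 without TSA 2, TSA 4, Vehicle 1 or Vehicle 3 (0.0515 to 0.0975). Rps3a1 passed narrowly (0.49 ± 0.22, 0.0494), on counts that leave out the reads listed under Rps3a3. With copies added its log2 fold change of −0.79 lay below the median of the 32 genes, −0.63, and without copies the call was lost when TSA 1, TSA 3, TSA 4, Vehicle 2, Vehicle 3 or Vehicle 4 was left out (adjusted p from 0.112 to 0.287). Without TSA 2, TSA 3 or TSA 4 the count was 2, and with the median of the genes as the base, in limma, it was 0.

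Rps27l is a paralog of Rps27 and a target of p53 in human and mouse cells (chromosome 9, 66944624 to 66949522). It had 17.4, 18.0, 15.1 and 15.51 CPM in TSA 1 to 4, against 38.8, 22.6, 25.3 and 41.4 CPM in Vehicle 1 to 4. All TSA libraries were lower, with Vehicle 2 and Vehicle 3 nearest to them (edgeR adjusted p = 0.00121). The log2 ratio of counts of Rps27l to those of Rps27, which leave out named copies that hold 27.1% of the summed Rps27 counts, was 4.51, 3.51, 3.61 and 3.31 in TSA 1 to 4, against 5.05, 4.29, 4.35 and 4.51 in Vehicle 1 to 4. The difference of −0.81 did not pass a two-sided exact permutation test (p = 0.114, where the smallest possible is 0.0286), and TSA 1, with 5 counts of Rps27, lay among the Vehicle values. Without TSA 1 it was −1.07 (exact permutation p = 0.0286). The other paralog, Rps4l, had 9.30, 9.88, 13.0 and 10.9 CPM in TSA 1 to 4, against 10.5, 10.2, 18.6 and 14.7 CPM in Vehicle 1 to 4. These overlapped, with a log2 fold change of −0.31 ± 0.19 (edgeR adjusted p = 0.239), beside −0.29 ± 0.08 for Rps4x.

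Other proteins of the translation machinery were counted from lists chosen with earlier results of these data known. Of the 2 small-subunit proteins with other names, Rack1, a scaffold on the head, fell by 0.66 ± 0.11 on the log2 scale (edgeR adjusted p = 0.000457), and Fau, made as a fusion with a ubiquitin-like protein, was not called (−0.31 ± 0.24). Of 48 tested large-subunit genes 33 fell and 0 rose (median −0.58), with Rpl34 (−1.84 ± 0.14), Rpl32 (−1.08 ± 0.14) and Rpl37 (−0.86 ± 0.12) as the smallest p. Of 77 mitochondrial ribosome genes 55 fell and 0 rose (median −0.49), led by Mrpl13 (−0.89 ± 0.11), Mrpl50 (−0.88 ± 0.11) and Mrpl46 (−0.92 ± 0.12). Of 24 listed genes of TOP mRNAs or related translation factors, 13 fell and 3 rose (median −0.37), with Btf3 (−0.82 ± 0.09), Eif3h (−0.85 ± 0.10) and Naca (−0.78 ± 0.10) first; Rack1 and Fau are in this list too.

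Lists of factors that make or regulate the subunit held genes called in both directions, beside 15.4% that rose and 17.6% that fell among all tested genes. Of 47 small-subunit assembly factors 9 rose and 9 fell (median −0.01), shares close to that background. Emg1, which methylates the small-subunit RNA, fell by 0.72 ± 0.10 on the log2 scale, and Nol6 and Rrp12, of the nucleolar precursor, rose by 0.62 ± 0.09 and 0.62 ± 0.10. Of 22 regulators of TOP mRNAs 7 rose and 5 fell (median 0.10). Larp1, which binds the TOP motif, rose by 0.61 ± 0.09, and Eif4g1, an initiation scaffold, by 0.72 ± 0.12, while Cnbp, which binds TOP mRNAs, fell by 0.56 ± 0.09 on the log2 scale. Of 14 genes of RNA polymerase I transcription 2 rose and 4 fell, with Polr1a, the largest subunit, at 0.68 ± 0.11, Polr1c at −0.50 ± 0.09 and Taf1b at −0.50 ± 0.10. Of 9 factors known at ribosomal protein promoters 1 rose, Zbtb7a (0.62 ± 0.17), and 2 fell, Gabpb1 (−0.41 ± 0.10) and Tbp (−0.33 ± 0.10). In a list of p53 and its targets, 1 of 11 rose, Trp53 itself (0.49 ± 0.11), and 5 fell, among them Mdm2 (−0.45 ± 0.09), Eda2r (−0.79 ± 0.16) and Rps27l.

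Markers of the cells in the tissue were tested in the same fit, in which 15.4% of all genes rose. Basal progenitor markers rose in 7 of 11 genes and fell in 0, with summed levels of 949.9 to 1125 CPM in TSA and 446 to 609.8 CPM in Vehicle, led by Kif26b (2.102 ± 0.11), Heg1 (1.69 ± 0.10) and Eomes (2.09 ± 0.15). Neuron markers rose in 7 of 12 and fell in 1 (9666 to 10435 CPM in TSA, 7472 to 9402 CPM in Vehicle), led by Tbr1 (0.90 ± 0.11), Rbfox3 (0.59 ± 0.09) and Neurod2 (0.82 ± 0.13). Apical progenitor markers rose in 8 of 13 and fell in 2 (2124 to 2239 CPM in TSA, 2074 to 2454 CPM in Vehicle), with Pax6 (−1.54 ± 0.12), Aldoc (1.34 ± 0.11) and Veph1 (1.52 ± 0.14) first. Eomes, which marks basal progenitors, averaged 302 ± 23.4 CPM in TSA and 71.0 ± 18.1 CPM in Vehicle (SD, n = 4 each).

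Among markers of cells that arise outside the dorsal cortex, more were called lower than higher in each list, and 17.6% of all tested genes fell. Inhibitory neuron markers fell in 9 of 12 and rose in 2 (607 to 901 CPM in TSA, 1301 to 1646 CPM in Vehicle), led by Dlx6os1 (−2.04 ± 0.14), Dlx1 (−1.16 ± 0.12) and Gsx2 (−2.18 ± 0.24). Erythroid markers fell in 3 of 10 and rose in 0 (229 to 259 CPM in TSA, 346 to 646 CPM in Vehicle): Tfrc (−0.95 ± 0.09), Hbb-bs (−1.10 ± 0.23) and Hbb-bt (−1.22 ± 0.30). Microglia markers fell in 6 of 12 and rose in 0 (37.7 to 55.2 CPM in TSA, 53.5 to 74.0 CPM in Vehicle), led by Lyz2 (−1.70 ± 0.32), Aif1 (−1.49 ± 0.34) and Tyrobp (−0.87 ± 0.25). Endothelial and choroid or meningeal markers fell in shares near those of all tested genes, 18.2 and 12.5%. The endothelial ones were 2 of 11, Cldn5 (−0.71 ± 0.14) and Esam (−0.49 ± 0.14), with Emcn next (−0.49 ± 0.20), in summed levels of 211 to 254 CPM in TSA and 195 to 297 CPM in Vehicle. Of choroid plexus and meningeal markers 1 of 8 fell, Dcn (−1.11 ± 0.24), beside Ttr (−2.28 ± 0.88) and Pdgfrb (−0.15 ± 0.11), in summed levels of 39.3 to 46.5 CPM in TSA and 43.9 to 57.8 CPM in Vehicle, and their Lum and Aldh1a2 had 0 to 7 counts in TSA and 0 to 6 in Vehicle libraries. Mitochondrially encoded genes fell in 4 of 7 tested, mt-Nd1 (−0.63 ± 0.18), mt-Co1 (−0.61 ± 0.18) and mt-Nd2 (−0.55 ± 0.17) first. The part of cell make-up in the change of the small-subunit genes was not tested.

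H3K9ac was present at nearly all of these genes in both groups. A peak lay within 1 kb of an annotated gene end in all 8 lists for 31 of the 32 genes, against 63.6% of 14228 tested genes with a position. The exception was Rps27l, with a peak in 4 TSA and 3 Vehicle lists. It lacked one in Vehicle 4, whose list is the shortest at 22668 peaks, against 32248 to 61217 in the others. At the promoter table's start of Rps27l a peak was present in all 8 lists. The 63.6% of tested genes, like the shares of tested genes given for starts and far ends below, was not matched for expression level. Presence at 31 of the 32 genes is therefore not shown to be particular to them. A peak in 4 TSA and 0 Vehicle lists was found for 12 genes (0.0843%), and the reverse for 2 (0.0141%). These were the only genes at an unadjusted p under 0.05 (Fisher's exact test, smallest possible p 0.0286). With so few of them, no gene could pass at an adjusted p under 0.05 over 14228 genes, and 0 did. That 0 therefore does not show that presence was the same in both groups. Lists were called separately for each library, from 11824246 to 24075842 tags, so differences in height could not be compared. All 8 were called against an input of 18937878 tags, although the samples hold 1 input for each group.

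The peaks stood at the starts. All 24 small-subunit genes with a known start and strand had a peak within 1 kb of it in all 8 lists, against 70.01% of 11203 tested genes. At the far end 5 of 24 had one in all 8 lists, against 4.17% of tested genes, and these genes are short. Ranked within its own list by the authors' fold enrichment, the strongest peak near a typical small-subunit gene was high, with a median percentile of 90.9 to 95.4 in the TSA lists, and 92.6 to 94.1 in Vehicle 1 to 3 and 81.8 in Vehicle 4. Rps19 was the most uneven, with 26.9 in TSA 3 and 10.5 in Vehicle 4. Ranks in lists of different lengths show no change. Ranks of the peaks at other genes were not computed, so a high rank is not shown to be particular to these genes.

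Acetylation was listed beside the start more often than over it, at these genes and at genes in general. At the start itself 22.9% of the 24 genes were covered by a peak in the TSA lists on average, and 29.2% in the Vehicle lists, near the 28.9% in TSA and 27.2% in Vehicle for all tested genes. Covered shares were 93.8% in TSA and 88.5% in Vehicle at 250 bp downstream, and 59.4% in both groups at 250 bp upstream. For all tested genes the shares were 61.3% in TSA and 60.1% in Vehicle at 250 bp downstream, and 38.5% in TSA and 35.9% in Vehicle at 250 bp upstream. Of the peaks within 1 kb of a start, the summit of the one with the highest fold enrichment lay a median of 283 to 380 bp downstream in the TSA lists and 322 to 365 bp in the Vehicle lists, and 0 of 24 such summits lay within 50 bp of the start in any list. At Rps3 the summit was 552 bp downstream in TSA 1 and 481 bp downstream in Vehicle 1.

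**Figure D5:**
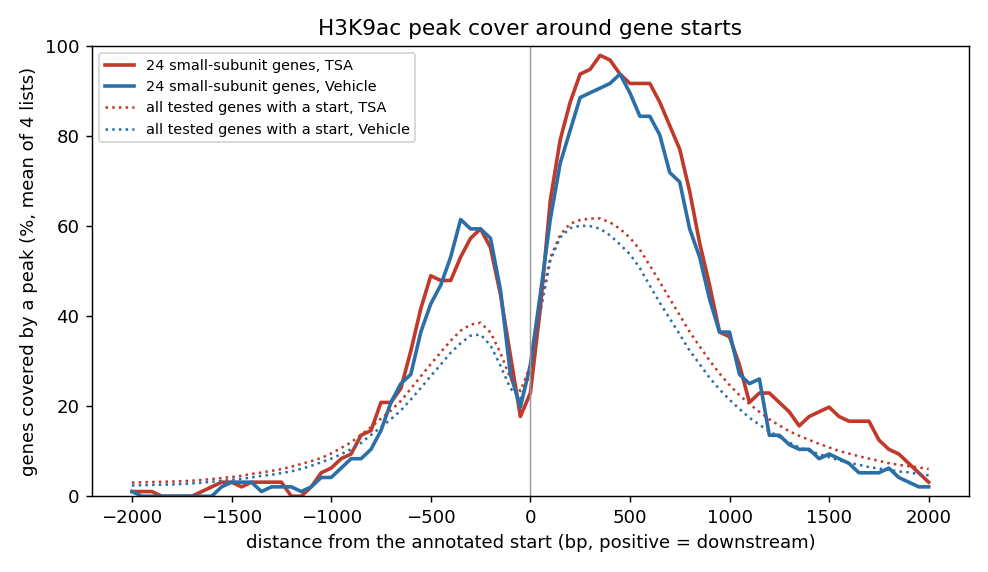
Percent of genes covered by an H3K9ac peak at each distance from the annotated start, averaged over 4 lists, for 24 small-subunit genes (solid) and all tested genes with a known start (dotted); red is TSA and blue is Vehicle. Cover of the small-subunit genes is low at the start, 22.9% in TSA and 29.2% in Vehicle, as it is for all tested genes, and stands at 93.8% in TSA and 88.5% in Vehicle at 250 bp downstream.

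The start letters and the change in RNA were set side by side. Of the 6 genes with a C start and pyrimidines after it, 4 fell (Rps10, Rps15a, Rps18 and Rps21) and Rps6 and Rps27, both at about 1 CPM, were not called; their median log2 fold change was −0.60. Of 11 genes with a pyrimidine run near the start 8 fell (median −0.71), and of the 13 without 7 fell (−0.51). Of 10 genes with ACTTCCG 7 fell (median −0.83), and of the 14 without 8 fell (−0.53). These subsets differ in expression level too and were not tested against each other.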

How the data were processed

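Per the labels' protocols, RNA came from whole tissue and the library kit kept no strand, which leaves reads of overlapping genes unresolved. The deposited RNA values are raw counts per Ensembl gene, 1 library per file; build mm10 and SAMtools are named in the submitters' processing notes, while no source used here gives the aligner or counting program. In the deposited files the lines for unassigned reads summed to 0. The authors called H3K9ac peaks per library with MACS2 2.1.0.20140616 at a q-value limit of 0.1, against 1 input of 18937878 tags, from 11824246 to 24075842 tags, per the file headers. Per the file headers these lists give the pileup signal, the fold enrichment (a ratio) and the −log10 of p and q; only presence, position and rank within a list were used.

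Tests used edgeR 4.0.16 under R 4.3.3 (filterByExpr, TMM, robust quasi-likelihood, no block), checked on simulated data, with DESeq2 1.42.0 and limma 3.58.1 as alternatives. SE is the fold change divided by the square root of F. No 2 libraries of a group agreed within sampling noise. Genes, their lists, lobes of the subunit and tests were chosen with earlier results of these data known. Named with values in every library were the 6 falls of smallest p, the 3 changes closest to 0 and the paralogs, and from other lists up to 3 genes of smallest p; 4 of the 32 genes, some taken by this rule, are counted but not reported singly here; Rps3a1 and Rps26 were added after their values were seen. The planned naming by level per length could not be applied, since no transcript lengths were used. Sequences are from RefSeq. Peak positions are 1-based, and Python 3.11.15 and scipy 1.17.1 were used for peaks and exact tests.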

Additional observations from a re-analysis of the deposited data

Results flagged for a closer look

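Of 80 groups of 4 values checked for a sample far from the others, 8 were flagged, while chance flags about 1 in 20. Rps16 had 12.004 CPM in TSA 4, against 3.81 to 4.97 CPM in the other TSA libraries, and without TSA 4 it fell by 1.01 on the log2 scale (edgeR adjusted p = 0.0121). Rps2 had 46.0 CPM in TSA 4, against 27.4 to 29.7 CPM in the other TSA libraries. The small-subunit share of counts was 0.304% in TSA 1, against 0.281 to 0.284% in the other TSA libraries. Counts of Rps pseudogenes were 0.735% of the small-subunit counts in TSA 4, against 0.361 to 0.410% in the other TSA libraries. Rps27 had 1.82 CPM in Vehicle 4, against 1.16 to 1.24 CPM in the other Vehicle libraries.

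In the H3K9ac lists, 3 flags fell on Vehicle 4. It had a peak at 31 of the 32 genes, against 32 in each other Vehicle list. With the other Vehicle lists tied, a difference of any size raises this flag, so the chance rate above does not apply to it. The median percentile of the genes' peaks was 81.8 there, against 92.6 to 94.1. Of the windows at these genes, peaks covered a mean of 991 to 1295 bp in the TSA lists, 709 bp in Vehicle 4 and 1123 to 1203 bp in the other Vehicle lists. The window lay at the start for genes with a known start, and at both ends for the others.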

How the results depend on the processing

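The number of small-subunit genes that rose was 0 in every setting run. The number that fell was 20 with RLE factors, a 1 CPM filter or TMM without ribosomal protein genes, 22 without a filter, 21 with lane as a covariate or DESeq2, 19 with limma-voom or limma with the span trend kept, and 17 to 24 with a library left out; it moved to 9 with Xist status as a covariate. Deviations of same-numbered libraries correlated weakly, with r of 0.097, 0.085, 0.070 and 0.111 for numbers 1 to 4. For TSA 1, TSA 2 and TSA 4 the same-numbered Vehicle library was the closest, while TSA 3 was closest to Vehicle 2 at 0.155. Between different numbers r ranged from −0.208 to 0.155, so pairing was not settled. With a replicate block 22 fell and 3 genes were higher relative to the summed counts. That last count of 4 was 0 with the median of the genes as base and 2 to 4 with a library left out. The Rps27l to Rps27 difference passed with a prior count of 2 CPM (−0.81, exact permutation p = 0.0286) and ranged from −1.07 to −0.65 with a library left out; as paired differences in a replicate block, p was 0.125, the smallest possible.

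Sign changes came only in genes that were not called. Rps27 was −0.038 with the replicate block, −0.0016 with TMM without ribosomal protein genes, −0.086 with limma and the span trend kept, and −0.15 with copies added. With Xist status Rps6, Rps16 and Rps2 were 0.12, 0.41 and 0.40; without Vehicle 1 and 4 Rps3a1 and Rps13 were 0.22 and 0.13; with the span trend removed Rps6 and Rps2 were 0.19 and 0.072, and with it kept in limma Rps6 was 0.00083. With a library left out, Rps27 ranged from −0.10 to 0.17, Rps6 from −0.20 to 0.080, Rps2 from −0.28 to 0.017 and Rps3a1 from −0.45 to 0.050. The causes were not tested. Genes with peaks in every list numbered 29 within 500 bp, 32 within 2 kb, 31 at −log10 q of 2, 30 with 50% of the peak inside and 31 to 32 with a list left out. Genes at about 1 CPM rest on 5 to 28 counts a library, which limits what could be called in them.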
